A study of Mus musculus with 5 samples.

Results

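The genes examined here are 9 that write, keep, read or remove DNA methylation in mouse cells: *Dnmt1*, *Dnmt3a*, *Dnmt3b*, *Dnmt3l*, *Uhrf1*, *Tet1*, *Tet2*, *Tet3* and *Mbd1*. The rule picks them by symbol alone, with no measured value, from the 25414 genes to which the RNA-seq values of the series were summed, and they are represented by 36 RefSeq transcripts. Methylation of cytosine in CG dinucleotides is set on new sites by DNMT3A and DNMT3B, with DNMT3L as a partner that has no catalytic activity. After replication, UHRF1 binds hemimethylated CG sites and brings DNMT1, which copies the mark to the new strand. TET enzymes oxidise 5-methylcytosine, which leads to its removal by base excision repair or by dilution at replication, and MBD1 is a protein that binds methylated and also unmethylated CG sites.

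The study set the three-dimensional genome of germline stem cells beside that of other cells, and its RNA-seq libraries from 2 cultured cell types were used here. NSCs were primary neural stem cells from the cortex of E12.5 mouse embryos, expanded for 5 to 8 passages with EGF, bFGF, heparin and B27, and gave 2 libraries. STO is a continuous fibroblast line from SIM mouse embryos, grown in DMEM with 10% fetal bovine serum to more than 30 passages, and gave 3 libraries; the labels list the strain C57BL/6 for both cell types, and neither carried a treatment or a deletion. STO cells are thus 1 line, and the medium differed with the cell type, so that medium and cell type cannot be told apart. Nothing states that the replicates came from separate cultures, so the p-values measure only the spread between these samples.

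The authors deposited FPKM values, in which fragments are divided by transcript length and by library depth, so that levels can be compared between genes. The deposited intervals imply between 15223341 and 22271895 fragments per library. The replicates had a Pearson's r across genes of 0.994 to 0.996. Of the neural stem cell markers, *Nes* had 176 and 169 FPKM in the NSC libraries and at most 0.072 in the STO libraries. *Sox2* had 308 and 276 FPKM and *Pax6* 5.04 and 5.22 FPKM in the NSC libraries, and both were listed at 0 in every STO library. Fibroblast markers summed to 5.05 and 5.12 FPKM in NSCs and to 1352 to 1462 in STO cells, so that the labels and the markers point to the same cells. The NSC libraries also held glial RNA: 4 of 4 astrocyte markers were at or above 1 FPKM, with sums of 70.4 and 71.4, and 3 of 4 oligodendrocyte markers, with sums of 123 and 127, against sums of at most 0.43 and 1.14 in STO cells. Most of the astrocyte sum in NSCs was *Aldh1l1*, at 47.0 and 45.7 FPKM. Most of the oligodendrocyte sum was *Mbp*, at 83.4 and 88.3 FPKM, and *Mog* had a mean of 0.54. Neuron markers summed to 115 FPKM in both NSC libraries and to 12.3 to 12.8 in STO cells. Most of the neuron marker sum in NSCs was *Map2*, at 100 and 102 FPKM. The means in NSCs and STO cells were 8.69 and 8.30 for *Tubb3*, 4.71 and 0.0011 for *Dcx*, and 0.51 and 0 for *Rbfox3*. Germ and pluripotent cell markers were at or under 0.15 in every library. In bulk RNA, a lower share of cells that express a gene and less of its RNA per cell cannot be told apart.

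Dnmt1 and Uhrf1, the maintenance enzyme and its guide, stood at the top of the 9 genes in both cell types, and both were higher in STO cells, by 1.24-fold and 1.27-fold. The order of levels was *Dnmt1*, *Uhrf1*, *Dnmt3a*, *Tet3*, *Mbd1*, *Tet1*, *Tet2*, *Dnmt3b* and *Dnmt3l* in NSCs. In STO cells it was *Dnmt1*, *Uhrf1*, *Mbd1*, *Tet3*, *Dnmt3a*, *Tet2*, *Dnmt3b*, *Tet1* and *Dnmt3l*, so *Dnmt3a* stood at place 3 in NSCs and 5 in STO cells, and *Tet1* at place 6 and 8. No 2 neighbours in either order had replicate ranges that overlapped.

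**Figure D1:**
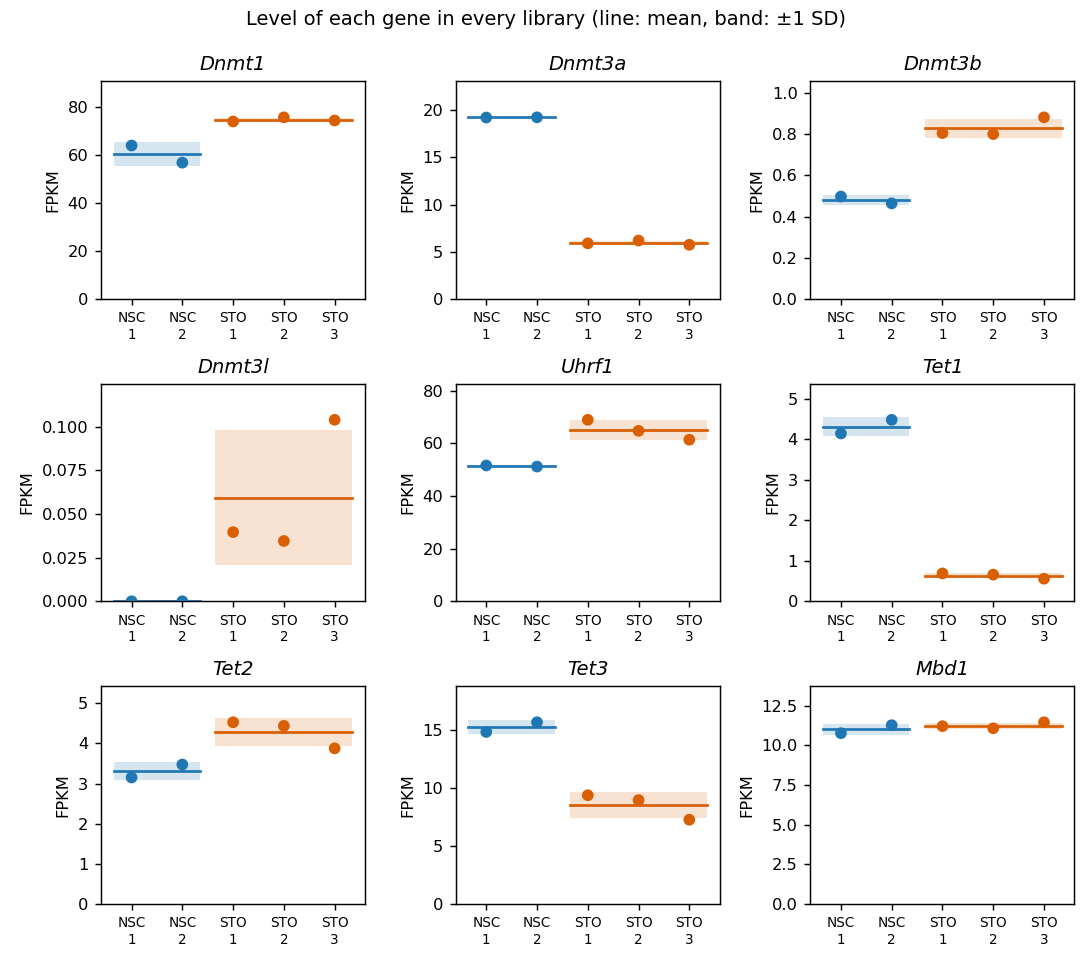
FPKM (y axis, linear from 0, a scale of its own for each gene) of the 9 genes in every library (x axis). Points are libraries, blue for NSC and orange for STO, lines are group means and bands are ±1 SD (n = 2 and n = 3). *Dnmt3a*, *Tet1* and *Tet3* lie lower in every STO library, *Dnmt1*, *Uhrf1*, *Dnmt3b* and *Tet2* lie higher, and the groups of *Mbd1* overlap.

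Differences were tested with limma on log2(FPKM + 1) over the 12292 genes that reached a mean of 1 FPKM in either cell type; p-values were adjusted by Benjamini-Hochberg over all of them, and the threshold was 0.05. Of the 9 genes 7 passed the filter, all but *Dnmt3b* and *Dnmt3l*. Of these 7, 6 were called, 3 higher in STO cells (*Dnmt1*, *Uhrf1* and *Tet2*) and 3 lower (*Dnmt3a*, *Tet1* and *Tet3*). Between 2 cell types as unlike as these, 85.6% of all genes tested were called, 41.9% higher and 43.7% lower, and 89.9% had groups that did not overlap, so a count of 6 of 7 is no more than the share among all genes. The sizes of the differences therefore say more about these genes than the calls do. The median absolute difference was 0.33 for the 7 genes against 0.74 for all genes tested, and the median signed difference was 0.03 against -0.02. Only 2 of the 7, *Dnmt3a* and *Tet1*, were called with an absolute difference of at least 1, where 38.4% of all genes were.

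**Figure D2:**
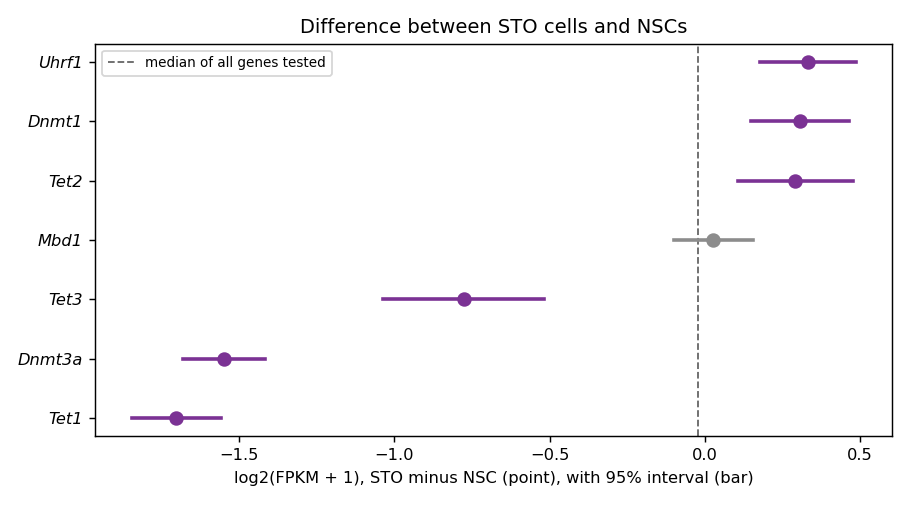
Difference in log2(FPKM + 1) between STO cells and NSCs (x axis, STO minus NSC) for the 7 genes tested (y axis), with 95% intervals from limma as bars. Purple genes passed an adjusted p of 0.05, the grey one did not, and the dashed line is the median of all genes tested, -0.02. *Tet1* and *Dnmt3a* lie between -1.42 and -1.85 with their whole intervals, while *Uhrf1*, *Dnmt1* and *Tet2* lie between 0.11 and 0.49.

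Among the de novo methyltransferases, *Dnmt3a* had the highest level in both cell types and fell in STO cells. *Dnmt3a* (chr12:3806980-3914443, mm9, plus strand) encodes the main de novo enzyme of somatic cells and of the developing brain. Its levels were 19.2 and 19.3 FPKM in the NSC libraries and 5.88, 6.18 and 5.73 in the STO libraries, from 823 to 1715 implied fragments. The groups were far apart, and the replicates differed by less than 1 FPKM in each. The mean was 3.24-fold lower in STO cells, a difference of -1.55 ± 0.054 (SE) in log2(FPKM + 1) (limma, adjusted p = 6.66e-07), and 23.2% of all genes tested differed by at least as much in either direction. In NSCs its level exceeded that of 66.2% of the genes tested, in STO cells that of 33.8%. The glial markers and *Map2* described for the NSC libraries were likewise lower in STO cells. Their part in the difference of *Dnmt3a* was not tested.

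In all libraries the whole level of *Dnmt3a* was assigned to the same listed start, called the used start below. The files hold 3 transcripts with 3 starts, and every sample had its whole *Dnmt3a* level in NM_007872, which begins at the first start and codes for the long form. The transcript NM_153743, which begins 84764 bases downstream inside the gene and codes for the short form known as Dnmt3a2 from embryonic stem cells and germ cells, was listed at 0 in all 5 samples, and so was NM_001271753, which begins 180 bases after the first start. An exact 0 in these files can also be a failed estimate, and the division of reads between transcripts is an estimate of Cufflinks. The 250 bases before the used start and before the start of the short form are shown with each CG dinucleotide in capitals, because DNA methylation is placed on these dinucleotides. They were read from mm9, at chr12:3806730-3806979 and chr12:3891494-3891743, 5′ to 3′ on the plus strand.
Dnmt3a long form (NM_007872): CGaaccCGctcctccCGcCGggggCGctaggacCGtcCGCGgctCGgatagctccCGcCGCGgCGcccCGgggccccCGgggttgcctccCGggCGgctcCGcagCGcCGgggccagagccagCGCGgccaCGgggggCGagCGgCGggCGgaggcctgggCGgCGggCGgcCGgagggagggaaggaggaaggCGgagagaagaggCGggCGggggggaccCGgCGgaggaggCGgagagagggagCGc
Dnmt3a short form (NM_153743): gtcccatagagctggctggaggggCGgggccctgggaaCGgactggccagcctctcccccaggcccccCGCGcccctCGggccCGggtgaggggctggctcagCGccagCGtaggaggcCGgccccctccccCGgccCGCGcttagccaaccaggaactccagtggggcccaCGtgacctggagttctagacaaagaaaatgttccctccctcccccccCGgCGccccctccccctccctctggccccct
The stretch before the used start held 38 CG dinucleotides, more than 98.1% of the corresponding windows of 32851 starts in the RefSeq promoter table, and the stretch before the short form held 15, more than 72.7%. The median over all windows was 6.

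Dnmt3b and Dnmt3l were near the floor in both cell types. *Dnmt3b* (chr2:153475185-153513466), the second de novo enzyme, which is high in pluripotent cells, had 0.497 and 0.464 FPKM in NSCs and 0.806, 0.801 and 0.882 in STO cells. These values rest on 36 to 82 implied fragments and lay below the filter, so that the gene was not tested in the main comparison. The groups did not overlap, and the mean ratio was 1.73. Without the filter the difference of 0.31 in log2(FPKM + 1) had an adjusted p of 0.000757 by limma, and it was 0.58 on the TPM scale and 0.68 with a pseudocount of 0.1. *Dnmt3a* exceeded *Dnmt3b* by 40.1 ± 2.00-fold (SD, n = 2) in NSCs and 7.17 ± 0.623-fold (SD, n = 3) in STO cells. *Dnmt3l* (chr10:77505032-77526367), the cofactor of germ cells and embryonic stem cells, was listed at 0 in both NSC libraries and at 0.040, 0.035 and 0.104 FPKM in the STO libraries. This corresponds to 1, 1 and 3 implied fragments, at which no difference was detectable.

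The maintenance pair rose together by a small step. *Dnmt1* (chr9:20711650-20764332, minus strand) had 63.8 and 56.7 FPKM in the NSC libraries and 73.8, 75.5 and 74.2 in the STO libraries. Each STO value lay above both NSC values, and the NSC replicates were farther apart than the STO replicates. The mean was 1.24-fold higher in STO cells, a difference of 0.31 ± 0.065 (SE; limma, adjusted p = 0.00445). *Uhrf1* (chr17:56442760-56462909, plus strand) had 51.6 and 51.2 FPKM in NSCs and 69.0, 64.8 and 61.4 in STO cells. Here too the groups were apart, with the wider spread among the STO replicates, and the mean was 1.27-fold higher, a difference of 0.33 ± 0.063 (SE; limma, adjusted p = 0.00272). Steps of this size were common, since 77.2% of all genes tested differed by at least as much as *Dnmt1* and 75.3% by at least as much as *Uhrf1*. The ratio of *Uhrf1* to *Dnmt1* was 0.857 ± 0.067 (SD, n = 2) in NSCs and 0.873 ± 0.055 (SD, n = 3) in STO cells, a gap smaller than the spread between replicates. On the TPM scale, where every library has the same sum, the median of all genes tested moved from -0.02 to 0.12. The differences were 0.48 for *Dnmt1* and 0.51 for *Uhrf1*. The filter of 1 and the pseudocount of 1 were applied after this scaling. The set of genes tested and the weight of the pseudocount therefore changed as well.

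Both genes belong to the S-phase programme, and 13 other genes of replication and the cell cycle were read beside them. Of these, 9 were higher in STO cells, 2 lower and 2 not called, which is 84.6% called against 85.6% of all genes, with a median of 0.24. *Mcm7*, a subunit of the replicative helicase, had a mean of 72.8 FPKM in NSCs and 126 in STO cells, a rise of 0.78 (limma, adjusted p = 1.66e-05). *Mki67*, a marker of cycling cells, rose by 0.69 (limma, adjusted p = 0.000189) and *Top2a*, the topoisomerase of dividing cells, by 0.55 (limma, adjusted p = 0.000277). The difference was 0.01 for *Mcm2* and 0.08 for *Cdk1* (limma, adjusted p = 0.884 and 0.239), whereas the cyclins *Ccnb1* and *Ccne2* fell by 0.34 and 0.43 (limma, adjusted p = 0.000778 and 0.00501). On the TPM scale 11 of the 13 were higher and 2 lower, and without NSC replicate 1 there were 6 higher and 1 lower, with *Ccne2* not called. *Pcna*, also a gene of replication, was placed among the maintenance cofactors and is not counted in these 13. Its mean was 227 FPKM in NSCs and 132 in STO cells, a fall of 0.78 (limma, adjusted p = 4.47e-05). The part of proliferation in the rise of *Dnmt1* and *Uhrf1* was not tested.

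The level of *Dnmt1* was assigned to 1 of its 3 listed starts in every library, again called the used start. Its level was divided between NM_001199431 and NM_010066, which share a start, and the 3 other transcripts were listed at 0 throughout. One of these, NM_001199432, begins 6909 bases upstream; oocytes are known to use a start upstream of the somatic one for *Dnmt1*. The 250 bases before these 2 starts (chr9:20764333-20764582 and chr9:20757424-20757673, mm9, minus strand) are shown with CG dinucleotides in capitals. They set a start listed at 0 beside the used one.
Dnmt1 upstream start (NM_001199432): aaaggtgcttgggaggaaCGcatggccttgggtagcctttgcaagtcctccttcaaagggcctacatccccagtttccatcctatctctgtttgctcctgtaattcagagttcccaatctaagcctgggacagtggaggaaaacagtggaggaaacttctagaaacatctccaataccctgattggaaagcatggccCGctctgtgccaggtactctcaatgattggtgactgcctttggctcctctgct
Dnmt1 used start (NM_001199431 and NM_010066): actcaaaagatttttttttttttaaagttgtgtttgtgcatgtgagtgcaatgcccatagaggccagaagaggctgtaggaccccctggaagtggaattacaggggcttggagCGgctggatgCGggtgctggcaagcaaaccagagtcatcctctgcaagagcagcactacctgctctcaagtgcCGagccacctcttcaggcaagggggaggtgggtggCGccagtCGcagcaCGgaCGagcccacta
The upstream stretch held 2 CG dinucleotides, and the stretch before the used start 7. The 250 bases before the third start, also listed at 0, held 26. How reads were divided between these transcripts is an estimate of Cufflinks. NM_001199431 had 28.3 FPKM in both NSC libraries and 38.9, 39.8 and 37.3 in the STO libraries, a rise of 0.44 ± 0.044 (SE; limma over 16257 transcripts, adjusted p = 0.00071). NM_010066 differed by 0.17 with an interval from -0.11 to 0.45 (limma, adjusted p = 0.193), and its groups overlapped. The share of *Dnmt1* in NM_001199431 was 44.4% and 50.0% in NSCs and 52.8%, 52.7% and 50.3% in STO cells (exact permutation test, two-sided, p = 0.2, the smallest p that 2 against 3 samples allow). Of *Uhrf1*, NM_010931 held between 71.5% and 80.6% in every library and rose by 0.37 (limma, adjusted p = 0.00184). The rest moved between NM_001111079 and NM_001111078, each of which was listed at 0 in some libraries, so their single values were not read further.

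**Figure D3:**
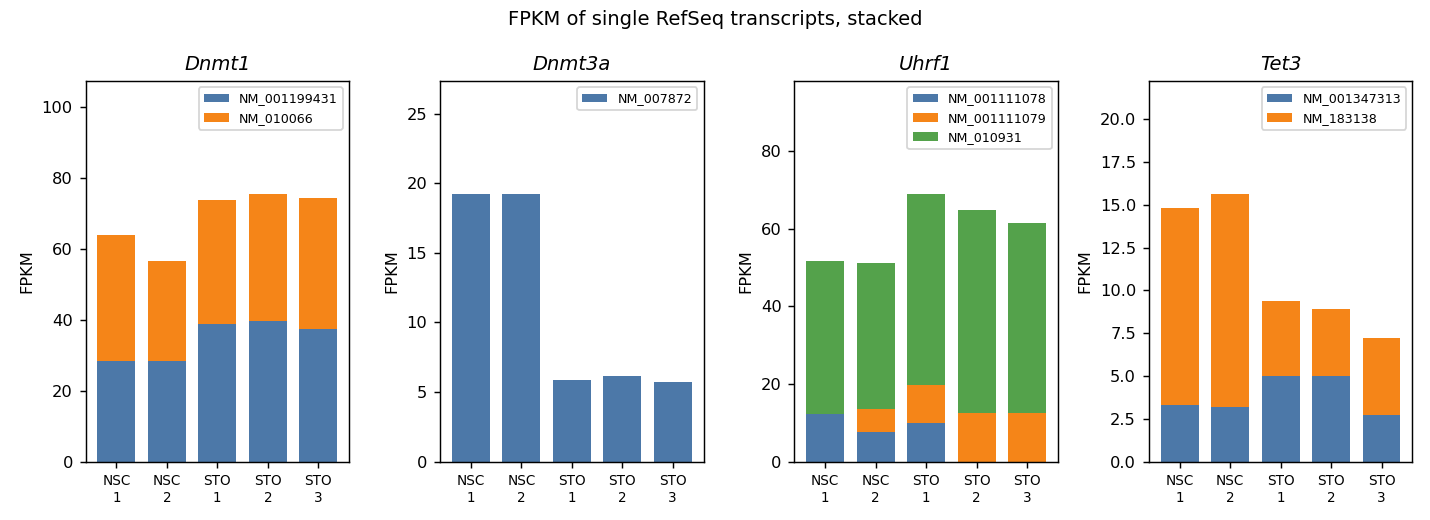
FPKM (y axis, linear from 0, a scale of its own for each gene) of the RefSeq transcripts of *Dnmt1*, *Dnmt3a*, *Uhrf1* and *Tet3*, stacked in each library (x axis). Colours are transcripts, and those at 0 in every library are left out. The *Tet3* bars shrink in STO cells through NM_183138, from 11.5 and 12.4 FPKM to between 3.95 and 4.51, while *Dnmt3a* has 1 transcript in every library.

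The 3 TET genes moved in different directions, and their make-up shifted away from *Tet1*. *Tet1* (chr10:62267318-62350072, minus strand), the TET gene best known from pluripotent cells and from neural progenitors, had 4.15 and 4.48 FPKM in the NSC libraries and 0.689, 0.658 and 0.557 in the STO libraries. The lowest NSC value was above every STO value by more than 3 FPKM, and the numbers of implied fragments were 1872 and 2218 against 216 to 268. The mean was 6.80-fold lower in STO cells, and the difference in log2(FPKM + 1) was -1.70 ± 0.059 (SE; limma, adjusted p = 6.45e-07). The pseudocount of 1 shortens this difference because the STO values lie below 1, and it was -2.59 with a pseudocount of 0.1. Of all genes tested, 20.4% differed by at least as much.

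*Tet3* (chr6:83312368-83406386, minus strand), the highest TET gene in both cell types and the one known from neurons and the zygote, had 14.8 and 15.7 FPKM in NSCs and 9.36, 8.94 and 7.25 in STO cells. Every STO value was lower than both NSC values, with STO replicate 3 lowest. The mean was 1.79-fold lower, a difference of -0.78 ± 0.106 (SE; limma, adjusted p = 0.000525), close to the middle of all genes, of which 48.3% differed by at least as much. *Tet2* (chr3:133126641-133207354, minus strand), a TET gene without a CXXC domain of its own that is often mutated in blood cancers, had 3.15 and 3.47 FPKM in NSCs and 4.53, 4.44 and 3.88 in STO cells. The STO libraries were all higher, by 1.29-fold in the mean and by 0.29 ± 0.076 (SE; limma, adjusted p = 0.0108). The call was lost without NSC replicate 1, where the difference was 0.24 and its adjusted p 0.104 by limma, and held without NSC replicate 2 (0.35; limma, adjusted p = 0.0457). It was 0.49 on the TPM scale and 0.45 after quantile normalization.

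The fall of *Tet3* lay in 1 of its 2 transcripts. NM_183138, which begins at the downstream start, had 11.5 and 12.4 FPKM in NSCs and 4.34, 3.95 and 4.51 in STO cells, and fell by 1.30 in log2(FPKM + 1) (SE 0.072; limma, adjusted p = 8.67e-05). NM_001347313, which begins 14714 bases upstream, had 3.32 and 3.22 FPKM in NSCs and 5.02, 4.99 and 2.74 in STO cells. Its groups overlapped because of STO replicate 3, and its difference of 0.26 had an interval from -0.38 to 0.91 (limma, adjusted p = 0.364). NM_183138 held 77.6% and 79.4% of *Tet3* in NSCs and 46.3%, 44.2% and 62.2% in STO cells, without overlap (exact permutation test, two-sided, p = 0.2, the smallest p that the design allows). How reads shared by the 2 transcripts were divided is an estimate of Cufflinks. The 250 bases before each start (chr6:83406387-83406636 and chr6:83391673-83391922, mm9, minus strand) are given because the 2 transcripts begin at different starts. CG dinucleotides are again in capitals. Whether the transcripts also differ in their exons was not examined.
Tet3 upstream start (NM_001347313): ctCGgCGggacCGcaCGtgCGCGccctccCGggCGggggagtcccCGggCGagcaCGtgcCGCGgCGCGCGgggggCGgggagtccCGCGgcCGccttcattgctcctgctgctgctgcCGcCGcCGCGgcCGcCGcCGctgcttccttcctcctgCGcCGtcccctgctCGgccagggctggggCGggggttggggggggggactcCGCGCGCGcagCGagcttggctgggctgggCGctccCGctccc
Tet3 downstream start (NM_183138): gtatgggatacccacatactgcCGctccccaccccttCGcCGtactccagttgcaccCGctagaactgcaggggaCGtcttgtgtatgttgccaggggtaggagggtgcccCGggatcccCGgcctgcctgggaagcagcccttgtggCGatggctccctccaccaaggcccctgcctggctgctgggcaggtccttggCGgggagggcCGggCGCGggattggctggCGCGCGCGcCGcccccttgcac
The upstream start, whose transcript did not pass the test, had 38 CG dinucleotides before it, and the downstream start, whose transcript fell, had 17.

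Summed over the family, TET RNA was 22.1 and 23.6 FPKM in the NSC libraries and 14.6, 14.0 and 11.7 in the STO libraries. *Tet1* made up 18.9% ± 0.172 (SD, n = 2) of it in NSCs and 4.73% ± 0.043 (SD, n = 3) in STO cells. *Tet2* made up 14.5% ± 0.331 and 32.0% ± 1.10, and *Tet3* 66.6% ± 0.503 and 63.3% ± 1.13. The DNMT sum was 79.9 ± 5.06 FPKM (SD, n = 2) in NSCs and 81.3 ± 1.06 (SD, n = 3) in STO cells, a gap smaller than the spread between the NSC replicates. Within that sum *Dnmt1* exceeded *Dnmt3a* by 3.13 ± 0.265-fold in NSCs and by 12.6 ± 0.368-fold in STO cells. The ratio of the DNMT to the TET sum was 3.51 ± 0.383 in NSCs and 6.11 ± 0.729 in STO cells. These sums and ratios are descriptions over chosen genes and carry no test.

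*Mbd1* was the member whose level stayed closest between the cell types. It lies at chr18:74427829-74442391 and had 10.8 and 11.3 FPKM in NSCs and 11.2, 11.1 and 11.5 in STO cells. The groups overlapped, and the difference of 0.03 had an interval from -0.10 to 0.15 (limma, adjusted p = 0.632), so that a change beyond 0.15 in either direction lies outside it. On the TPM scale, where the median of all genes was 0.12, the difference was 0.20 and passed the test (limma, adjusted p = 0.0117). One transcript, NM_001357421, rose by 0.20 in the fit over single transcripts (limma, adjusted p = 0.022), from 4.19 and 4.36 FPKM to 5.09, 4.92 and 5.24. Over all 36 transcripts of the 9 genes, 13 could be tested, of which 3 rose and 3 fell, and 16 were listed at 0 in every library; 77.1% of all transcripts tested were called.

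The remaining genes of the pathway were read from 6 lists of 44 genes, of which 40 were tested. In STO cells 26 were higher, 11 lower and 3 not called, or 92.5% called beside 85.6% of all genes, with a median of 0.37 against -0.02. The number of lower genes was 7 on the TPM scale and 7 without NSC replicate 2. The list of maintenance cofactors also held *Trdmt1*, which is not such a cofactor. Of the 6 tested genes in that list, 6 were called, 4 higher (*Trdmt1* among them) and 2 lower, beside 85.6% of all genes. On the TPM scale and without NSC replicate 2, STO replicate 1, 2 or 3, *Cdca7* was no longer called and 1 was lower, and without NSC replicate 2 *Trdmt1* was not called either and 3 were higher. *Hells*, a remodeller needed for methylation of repeats, rose from 10.7 and 10.6 FPKM to 44.4, 48.9 and 49.7, by 2.06 ± 0.064 (SE; limma, adjusted p = 3.82e-07). *Uhrf2*, the paralogue of *Uhrf1*, rose by 0.95 (limma, adjusted p = 1.1e-05). *Pcna*, the replication clamp that also tethers DNMT1, went the other way, from 231 and 223 FPKM to 131, 126 and 140 (fell by 0.78; limma, adjusted p = 4.47e-05). *Dppa3*, which keeps UHRF1 from chromatin in oocytes, was listed at 0 in all 5 samples.

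**Figure D4:**
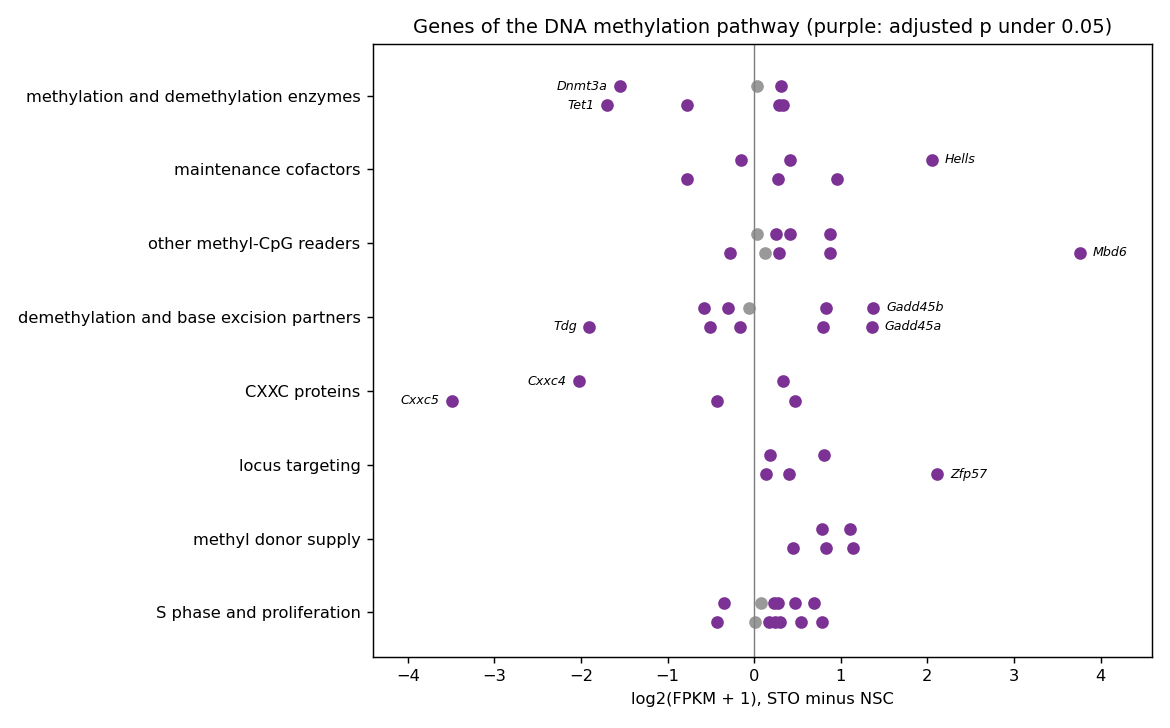
Difference in log2(FPKM + 1) between STO cells and NSCs (x axis, STO minus NSC) for each tested gene of the enzymes and of the 7 other lists (y axis). Purple points passed an adjusted p of 0.05 by limma and grey points did not, and genes past 1.2 in either direction are named. Points of the lists for locus targeting and methyl donor supply all lie to the right of 0, while *Cxxc5* at -3.49 and *Cxxc4* at -2.02 lie far to the left; *Mbd6* is listed at 0 in both NSC libraries.

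Among the CXXC proteins, both *Cxxc5* and *Cxxc4* were much lower in STO cells. *Cxxc5*, a protein that binds unmethylated CG sites and is known as a partner of TET2, had 54.2 and 55.5 FPKM in NSCs and 3.94, 3.91 and 4.08 in STO cells, 13.8-fold lower (-3.49 ± 0.050, SE; limma, adjusted p = 1.39e-08). *Cxxc4*, its relative, fell by 2.02 (limma, adjusted p = 8.55e-08), from 3.17 and 3.37 FPKM to 0.055, 0.069 and 0.036, and the difference was -4.46 with a pseudocount of 0.1. *Kdm2a*, a histone demethylase with a CXXC domain, rose by 0.47 (limma, adjusted p = 0.000267). Over this list 2 of 5 genes were higher and 3 lower, all of them called, beside 85.6% of all genes.

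Of the genes for demethylation and base excision, 10 of 12 were tested, 4 higher, 5 lower and 1 not called, or 90.0% called beside 85.6% of all genes. *Tdg*, the glycosylase that removes the oxidised bases made by TET enzymes, fell by 1.90 ± 0.082 (SE; limma, adjusted p = 1.84e-06), from 22.7 and 24.4 FPKM to 5.16, 6.20 and 5.39. *Tdg* was thus lower in STO cells, as were *Tet1* and *Tet3*, whereas *Tet2* was higher by 0.29. *Gadd45a* and *Gadd45b*, stress-induced genes linked to demethylation, rose by 1.36 and 1.38 (limma, adjusted p = 1.37e-05 and 8.49e-06). Their relative *Gadd45g* went the other way, from 27.3 and 27.2 FPKM to 20.2, 15.7 and 17.8 (fell by 0.58; limma, adjusted p = 0.00181). *Apex1*, the abasic site nuclease and the gene of this list with the highest level, differed by -0.17 with an adjusted p of 0.0286 by limma, but the call was lost on the TPM scale, after quantile normalization and without NSC replicate 2, STO replicate 1 or STO replicate 2, and the sign turned on the TPM scale. The number of lower genes in this list was 3 on the TPM scale, 3 without NSC replicate 1 and 2 without NSC replicate 2.

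The list of other methyl-CpG readers and their relatives had 6 genes higher, 1 lower and 2 not called of 9. This is 77.8% called beside 85.6% of all genes. *Zbtb38* and *Zbtb4*, zinc finger readers, rose by 0.88 each (limma, adjusted p = 0.000126 and 2.04e-05). *Mbd3*, a subunit of the NuRD complex, had the highest level of this list. Its mean was 132 FPKM in NSCs and 109 in STO cells, a difference of -0.27 (limma, adjusted p = 0.00752). The difference was -0.10 and not called on the TPM scale, and -0.14 and not called after quantile normalization. Without NSC replicate 2, fewer genes of this list were called higher. *Mbd6* was listed at 0 in both NSC libraries and at 15.2, 13.2 and 9.87 FPKM in the STO libraries, and no fold is given for it.

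All 5 genes for the targeting of methylation to loci and all 5 tested genes of methyl donor supply were higher in STO cells, where 41.9% of all genes tested were. The count for locus targeting was 3 of 5 after quantile normalization and without NSC replicate 1, NSC replicate 2 or STO replicate 2, since *Setdb1* (0.18) and *Ehmt1* (0.14), both H3K9 methyltransferases, were near the threshold. *Zfp57*, a zinc finger protein that guards methylation at imprinted loci, rose from 5.01 and 5.70 FPKM to 27.0, 24.5 and 28.2, by 2.12 ± 0.082 (SE; limma, adjusted p = 1.08e-06). With coding transcripts alone it rose by 1.40 (limma, adjusted p = 4.34e-05), so part of the larger value lay in a non-coding transcript of the gene. *Ehmt2*, the H3K9 methyltransferase G9a, rose by 0.81 (limma, adjusted p = 1.59e-05) and *Trim28*, the corepressor that ZFP57 recruits, by 0.41 (limma, adjusted p = 0.0013). The genes of methionine adenosyltransferase, which makes the methyl donor S-adenosylmethionine, rose by 0.83 for the catalytic *Mat2a* (limma, adjusted p = 3.83e-05) and by 1.10 for the regulatory *Mat2b* (limma, adjusted p = 1.76e-06).

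For each tested enzyme the gene with the closest profile was the one with the smallest Euclidean distance in log2(FPKM + 1) over the 5 samples, a measure set by level as well as by pattern. It was *Srsf1* for *Dnmt1* (0.126), *Ap2a2* for *Uhrf1* (0.174), *Clcn6* for *Dnmt3a* (0.163), *Dnm3* for *Tet1* (0.108), *Vps13b* for *Tet2* (0.0902), *Ostm1* for *Tet3* (0.143) and *Tbc1d5* for *Mbd1* (0.0647). *Dnm3*, as an example, had 4.26 and 4.79 FPKM in NSCs and 0.667, 0.675 and 0.627 in STO cells.

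From the RefSeq promoter table (GRCm38.p6, 250 bases before to 50 after a start), 15 starts of 8 of the 9 genes were read. *Mbd1*, on chr18, was left out of this reading. Each of the 15 windows was found once in mm9. The GC box GGGCGG was present on either strand in 12 of the 15 windows and in 35.7% of all 32851 windows, which overlap where starts lie close together. The E2F motif TTTCCCGC was in 0 of the 15 and in 1.07% of all windows, and TTTGGCGC in 1 of the 15, at a *Dnmt1* start listed at 0 (NM_001199433), and in 0.514% of all. CG dinucleotides in the 250 bases before the start numbered 51 for *Tet2*, 21 for *Dnmt3b* and 15 for *Tet1*. For *Uhrf1* they numbered 10 before the first start and 30 before the second. Each of the 3 motifs holds a CG dinucleotide itself, and all are matches of letters and not measured sites.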

How the data were processed

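RNA-seq of 5 samples was examined, NSC replicates 1 and 2 and STO replicates 1, 2 and 3, grouped by their labels. By the study's methods, stranded mRNA libraries were read as paired ends and aligned to mm9, and transcripts were quantified on RefSeq; the submitters' processing notes name HISAT2 4.8.2 and Cufflinks 2.2.1. The authors deposited FPKM values with the bounds of their confidence intervals for 40201 RefSeq transcripts per sample. No read counts were used. Implied fragments were taken from those bounds, with the distance from a value to its upper bound as 2 Poisson standard deviations. They are approximate and cover counting error only.

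Symbols came from a RefSeq table of GRCm38.p6, which matched 99.4% of transcripts, and FPKM were summed per symbol. Genes and transcripts with a mean of at least 1 FPKM in a group were tested on log2(FPKM + 1) by limma 3.58.1 in R 4.3.3, with eBayes set to fit a trend; this scale understates changes of low genes. The tests were tried on simulated data. Other steps used Python 3.11.15, numpy 2.4.6, pandas 2.3.3, scipy 1.17.1 and matplotlib 3.10.9. Intervals are 95%. Alternatives changed the pseudocount (0.1), the filter, the scaling (TPM, quantile), the trend, the rows (coding only), the size threshold, the replicate block and the samples.

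The genes examined, the pathway lists, the markers, the motifs and the tests were chosen with earlier results of these data known. Named were all 9 genes. Of each list, named were up to 3 genes with the largest difference among those called without overlap, the gene with the highest level, and any at 0 in every sample; Mcm2, Cdk1, Ccnb1, Ccne2, Setdb1, Ehmt1, Cdca7, Trdmt1 and Gadd45g were named after their values were seen, as genes that did not follow the rest of their list or lost their call. Some items of these lists are not reported here.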

Additional observations from a re-analysis of the deposited data

How the results depend on the processing

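With 2 and 3 libraries and no read counts, differences near the spread of the replicates were beyond these data. Leaving out each library in turn gave 4704 to 5065 genes higher and 4900 to 5253 lower, 21 to 25 other pathway genes higher and 7 to 10 lower, and differences of 0.24 to 0.35 for *Tet2* and of -0.00286 to 0.058 for *Mbd1*, whose sign turned without NSC replicate 1. *Mbd1* was also -0.022 after quantile normalization and 0.20, then called, on the TPM scale. The TPM scale gave 7 other pathway genes lower, and turned *Apex1* to 0.00504. It moved *Dnmt3b* to 0.58 and *Dnmt3l* to 0.20, against 0.68 and 0.65 with a pseudocount of 0.1. With an absolute difference of at least 1 also required, 2103 genes were higher and 2617 lower, and 7 and 3 of the other pathway genes; *Dnmt1* (0.31), *Uhrf1* (0.33), *Tet2* (0.29) and *Tet3* (-0.78) were no longer called, by the construction of that rule. The causes of the other moves were not tested.

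Both cell types have replicates numbered 1 and 2. Deviations from the group means correlated at 0.008 and 0.061 for equal numbers and at -0.061 to 0.05 for unequal ones. With 2 NSC libraries, the deviations of 1 mirror those of the other, so these values cannot decide whether equal numbers mark paired samples. Nothing states whether they do. Under a replicate block 4994 genes rose and 5252 fell, the transcript NM_001347313 of *Tet3* (0.49, adjusted p = 0.0207) was called and NM_001357421 of *Mbd1* (0.19, adjusted p = 0.144) was not, and no call of the 7 tested genes changed (limma). Of the other pathway genes, 24 were then higher and 9 lower; *Apex1* (-0.195, adjusted p = 0.0557), *Cdca7*, *Setdb1* and *Ehmt1* were not called, and locus targeting had 3 of 5 genes higher.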
